A study of Canis lupus familiaris with 45 samples.

Results

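The subcutaneous fat of 5 beagles that ate freely was compared after 12 weeks of free feeding with the fat of the same dogs before it began. The comparison holds 10 of the 45 arrays of the study, 1 array per dog and week, taken by the feeding group and week in the array titles and paired by the animal id that the titles give. The study used 9 intact female beagles, 4 years old, all on the same commercial diet, with fat taken from fasted animals at weeks 0, 4, 8, 12 and 24. The ad libitum dogs, numbered 2, 5, 6, 7 and 8, had food freely available from week 0 on, so their week-12 arrays (n = 5) are set against their own week-0 arrays (n = 5). The control dogs, numbered 1, 3, 4 and 9, received the amount that held their body weight, and their week-12 and week-0 arrays (n = 4 each) are used for comparison. The labels name no other treatment, and body weights are not used here. The question is how gene expression in fat differs after 12 weeks of free feeding.

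White fat stores surplus energy as triglyceride in adipocytes, which take up fatty acids and glucose after meals and release fatty acids through lipolysis during fasting under adrenergic and cyclic AMP signals. When intake exceeds need the cells enlarge, the matrix of collagens around them is rebuilt, and immune cells can enter the tissue. Adipocytes also secrete hormones such as leptin, whose level in many mammals follows fat mass. A biopsy measures all of these cells together. The roles given below for single genes are those known from human and mouse.

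Each value below is a log2 GCRMA signal of 1 probe set, a group of oligonucleotides for 1 transcript. A value of log2 4 was taken as the detection level, and the 22690 of 42924 probe sets above it on at least 4 of the 45 arrays were tested (52.9%). The array medians over all probe sets lay between 3.60 and 3.83. When each array was matched to the dog whose other arrays it resembled most, over 100 probe sets that separate the dogs, all 10 arrays of the comparison matched their labelled dog. Across the study 43 of 45 did. The other 2, both from week 8, matched each other's dogs: the one labelled dog 5 (ad libitum) was most like dog 9 (control), and the one labelled dog 9 was most like dog 5. Both stay in the fit as labelled, where they add to the shared error and the batch terms, and results that hold week-8 values are given with and without them. Without them 147 probe sets were called higher and 142 lower at week 12, against 93 and 89 with them. The fall in signal from the 3' to the 5' end of actin, a measure of RNA degradation, was log2 2.50 ± 0.56 at week 12 and 2.85 ± 1.00 at week 0 (SD, n = 5 each; 2-sided exact permutation p = 0.375, also after adjustment over 3 array measures; 5 pairs allow no p below 0.062). Dogs 6, 7 and 8 had both arrays in the same laboratory batch, and dogs 2 and 5 had them in different batches.

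Some biopsies carried skeletal muscle transcripts, and these did not fall evenly over the weeks. The mean of 21 skeletal muscle markers was log2 4.25, 3.98, 4.06, 7.35 and 3.94 at week 12 in dogs 2, 5, 6, 7 and 8, against 3.91, 11.17, 3.99, 13.75 and 7.89 at week 0 in the same dogs. It was high at week 0 in dogs 5, 7 and 8 and at neither week in dogs 2 and 6. In control dogs 1, 3, 4 and 9 it was 3.92, 4.07, 4.01 and 4.34 at week 12, against 12.85, 14.31, 4.10 and 3.96 at week 0. Myosin heavy chain MYH1, a defining muscle gene, averaged 3.97 at week 12 and 9.11 at week 0 in ad libitum dogs. None of the 21 markers passed the threshold, although 9 were lower at an unadjusted p under 0.05. The mean of 10 adipocyte markers was 13.25 ± 0.53 at week 12 and 13.28 ± 0.35 at week 0 (SD, n = 5 each), so the tissue carried adipocyte transcripts on all 10 arrays. Counts of calls and some genes are therefore given also without the 10 arrays, at any week, on which the muscle mean was above log2 6. At weeks 0 and 12 those of ad libitum dogs were dog 7 at week 12 and dogs 5, 7 and 8 at week 0. Without them the week-0 mean of ad libitum dogs rests on dogs 2 and 6 only, and the week-12 mean on dogs 2, 5, 6 and 8.

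**Figure D1:**
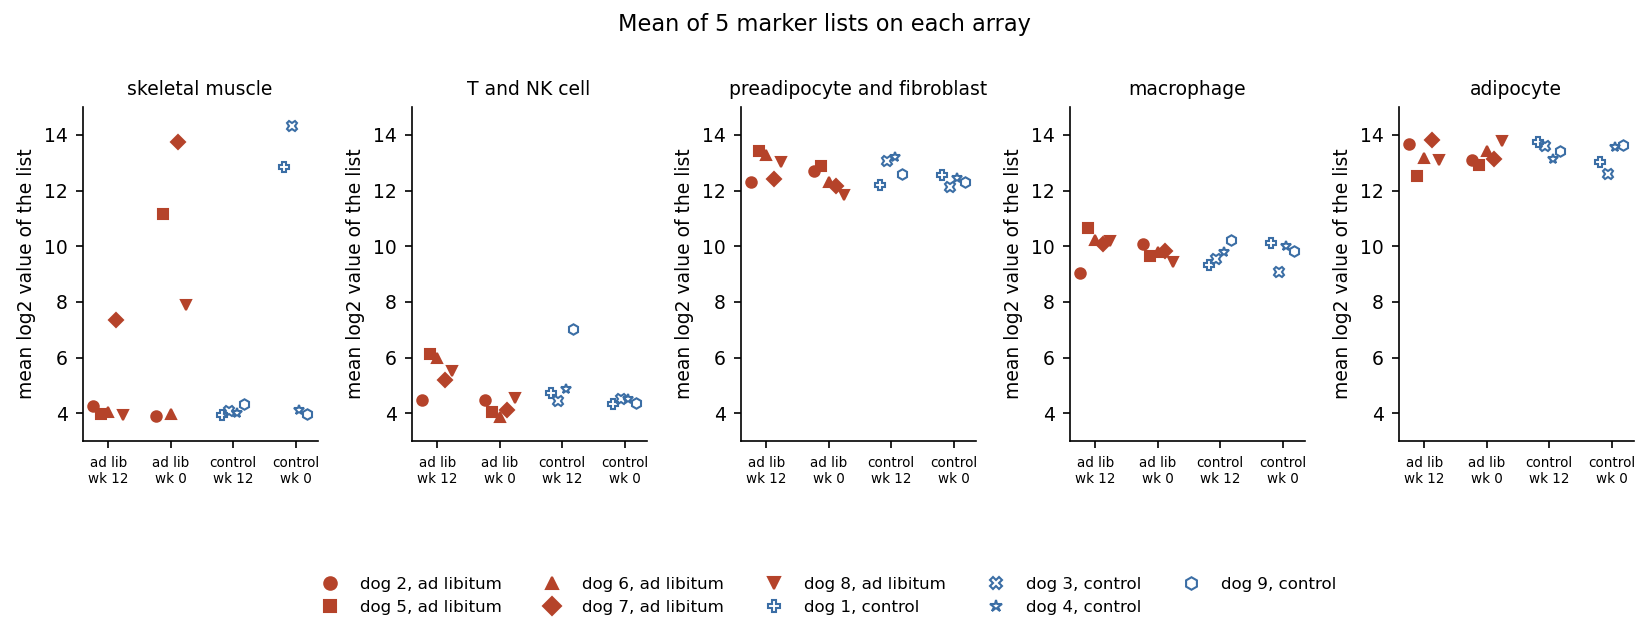
Mean log2 value of 5 lists of cell type markers (y axis) on each week-12 and week-0 array of ad libitum dogs and control dogs (x axis). Each point is 1 array. Skeletal muscle markers were at 7.35 at week 12 and 13.75 at week 0 in ad libitum dog 7, while adipocyte markers lay between 12.51 and 13.82 on all 10 ad libitum arrays.

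In ad libitum dogs 182 probe sets changed between week 0 and week 12. Those that rose included the secreted protein AZGP1, the fatty acid elongase ELOVL6, the matrix genes CPZ, LOX and THBS4 and the lymphocyte genes CCL5 and GZMK, and those that fell included G6PC1, ASB2, the lipid enzymes AGMO and ACER2 and the kinase subunit PRKAR2B. By limma's moderated test with Benjamini-Hochberg adjustment over all tested probe sets, 93 were higher (0.41% of those tested) and 89 lower (0.392%) at an adjusted p under 0.05. They covered 58 named genes that were higher and 44 that were lower. The median change was log2 1.41 among those called higher and -1.60 among those called lower, against 0.00 over all tested probe sets. In 82 of the 93 and in 84 of the 89 the change had the same sign in 5 of 5 dogs, as it had in 10.8% of all probe sets tested. The 5 week-12 values did not overlap the 5 week-0 values in 136 of the 182, and in 3.36% of all probe sets tested.

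The calls rest on all 5 dogs, so values in some of them are a description and no independent support. All 182 had the same sign in the mean of dogs 6, 7 and 8, each with both arrays in 1 batch, as had 80.8% of all probe sets tested, with a median of 1.24 for those higher and -1.64 for those lower. All 182 also had the same sign in the mean of dogs 2 and 6, whose muscle mean was near log2 4 at both weeks, as had 72% of all tested, with medians of 1.42 and -1.60. The number of calls depended on a few dogs. It came to 2 higher and 0 lower without dog 6, 17 and 35 without dog 7, 25 and 48 without dog 5, 26 and 39 without dog 2, 224 and 182 without dog 8, and 47 and 45 without control dog 9. The 2 left without dog 6 were AZGP1 and SLC46A2. Without the 10 muscle arrays 34 were higher and 59 lower, of which 25 and 35 were among the first 182. Of the 15 genes of each sign named below, 4 that rose passed there (AZGP1, LOC489231, SLC46A2 and THBS4). So did 5 that fell (ACER2, AGMO, CCDC68, PFKFB1 and PSAT1). The others did not, with an adjusted p from 0.0520 for GZMK to 0.533 for DYNC2I2. Among them were CCL5 (0.107), LOX (0.171) and G6PC1 (0.295). With only the 10 arrays of the comparison and each dog as its own block, no probe set passed, although 2423 had an unadjusted p under 0.05.

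**Figure D2:**
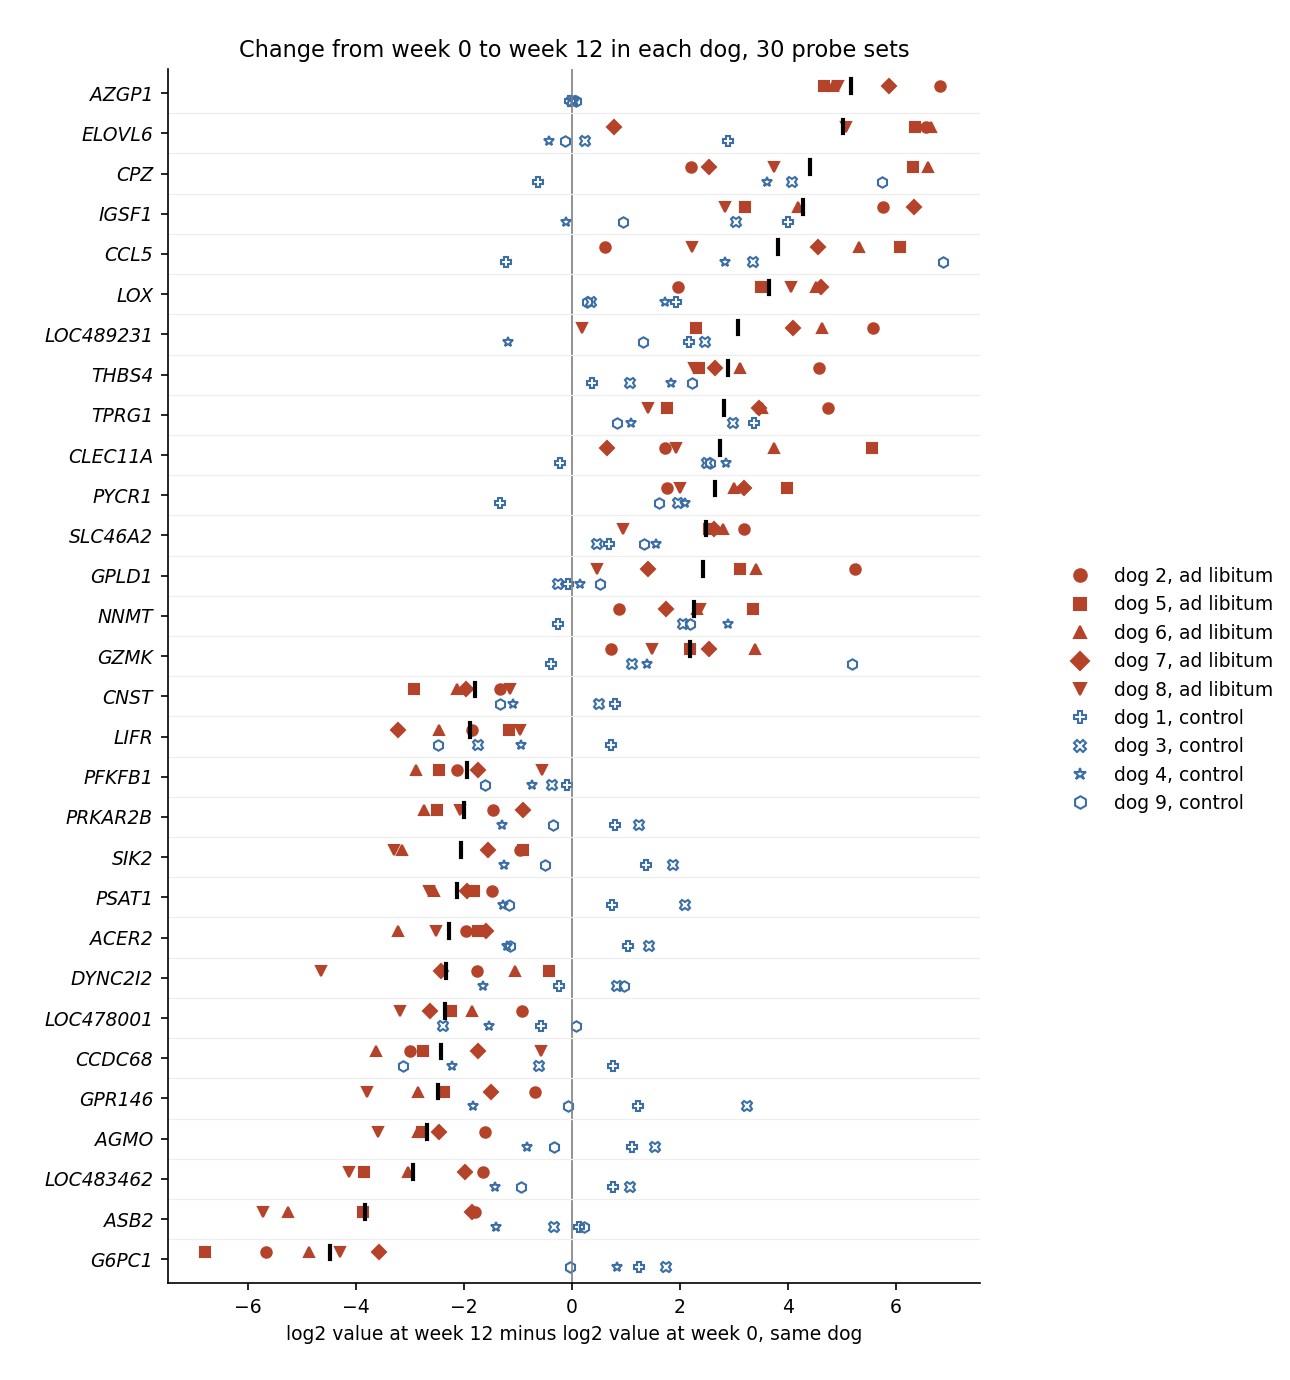
Log2 value at week 12 minus week 0 in the same dog (x axis) for the probe sets of the 15 genes with the largest rise and the 15 with the largest fall past the threshold (y axis). Filled points are the 5 ad libitum dogs, open points the 4 control dogs, and the black bar is the change fitted in ad libitum dogs. All 5 ad libitum dogs lie on the same side of 0 for every gene, as the choice of genes requires, and the control dogs lie near 0 for AZGP1 and on the same side as the ad libitum dogs for THBS4 and TPRG1.

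AZGP1, a secreted glycoprotein of fat and other tissues linked to lipid mobilisation, showed the largest fitted rise of the probe sets past the threshold. Its log2 values were 9.13, 6.99, 7.14, 8.10 and 7.30 at week 12 in dogs 2, 5, 6, 7 and 8, against 2.32, 2.32, 2.30, 2.22 and 2.37 at week 0 in the same dogs. Every week-12 value was above the detection level and every week-0 value below it. The fitted change was log2 5.17 (SE 0.730, adjusted p = 0.000433). The week-12 mean lay 13.3-fold above the detection level, a lower bound for the rise. The control dogs stayed below detection, at 2.31, 2.33, 2.39 and 2.42 at week 12 in dogs 1, 3, 4 and 9, against 2.35, 2.32, 2.35 and 2.34 at week 0. AZGP1 was also the only one called of 14 adipokines and other secreted adipocyte proteins, whose median change was 0.44. A second AZGP1 probe set, with means of 3.82 at week 12 and 3.30 at week 0, had a difference of 0.49 (adjusted p = 0.688). The first passed without the muscle arrays (adjusted p = 0.0345) and in dogs 6, 7 and 8 alone (0.0402). That last fit left out only dogs 2 and 5 at weeks 0 and 12, and the other arrays of the study still gave the spread.

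ELOVL6, which lengthens palmitate to stearate, had log2 values of 9.53, 9.68, 10.18, 3.86 and 8.88 at week 12, against 2.97, 3.32, 3.54, 3.07 and 3.81 at week 0, in dogs 2, 5, 6, 7 and 8. It was high at week 12 in 4 dogs, and below detection in dog 7 at week 12 and in all 5 dogs at week 0, so the difference in dog 7 lies between undetected values. The fitted change was log2 5.02 (SE 1.19, adjusted p = 0.0354), at least 21.5-fold for the group mean. In controls it was 6.23, 3.20, 3.44 and 3.52 at week 12 in dogs 1, 3, 4 and 9, against 3.34, 2.95, 3.87 and 3.64 at week 0, so control dog 1 also had a high value. Of the 11 measured desaturases and elongases, ELOVL6 alone was called, 5 were higher and none lower at an unadjusted p under 0.05, and the list's median change was 0.43. SCD, the main desaturase of fat, measured 16.19 to 16.38 at week 12 and 15.78 to 16.17 at week 0, a difference of 0.34 (adjusted p = 0.274). This probe set lies near the top of the arrays' range, and its week-12 value in dog 6 was the highest of that array. Whether this limits the size of its difference was not tested. Dimmer SCD probe sets had a difference of 1.67 and 1.77 (adjusted p = 0.223 and 0.222). The ELOVL6 call was lost without the muscle arrays, with a change of 6.93 and an adjusted p of 0.105.

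Among the genes fixed by name for fat, LEP, the hormone leptin, had log2 values of 12.63, 9.95, 11.29, 12.04 and 11.43 at week 12, against 7.72, 8.33, 8.70, 7.81 and 10.48 at week 0, in dogs 2, 5, 6, 7 and 8. The 2 ranges overlapped because dog 5 was at 9.95 at week 12 and dog 8 already at 10.48 at week 0, yet each dog's own value was higher at week 12. The fitted change of 2.61 (SE 0.696) had an adjusted p of 0.0618 and did not pass. ADIPOQ, the hormone adiponectin, had a difference of -0.34 (adjusted p = 0.445), PPARG, the master regulator of adipocytes, of -0.28 (0.819), and LPL, which frees fatty acids from circulating triglyceride, of -0.54 (0.516). FASN, fatty acid synthase, measured 13.63, 12.77, 13.28, 13.40 and 11.30 at week 12, against 13.31, 13.27, 13.34, 12.96 and 13.83 at week 0, with dog 8 lowest at week 12. Its change was -0.44 (adjusted p = 0.794). The 16 genes of fatty acid synthesis and NADPH supply held no call, with 4 higher and 2 lower at an unadjusted p under 0.05 and a median of 0.18. ME1, malic enzyme, had a difference of 1.18 (adjusted p = 0.241) and MLXIPL, the carbohydrate-responsive factor, of -1.21 (0.246).

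**Figure D3:**
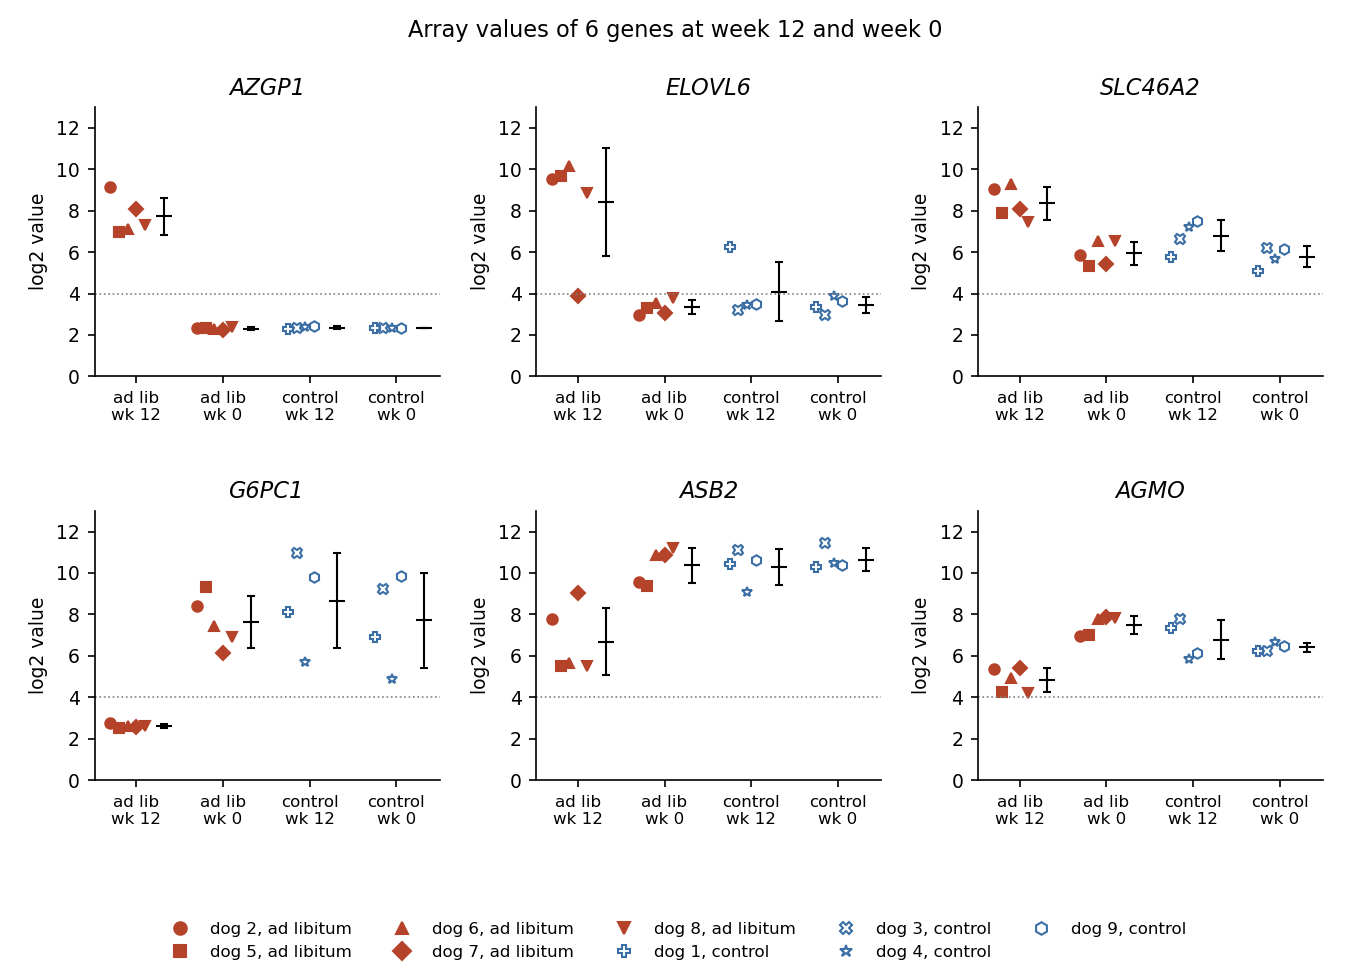
Log2 value (y axis) of AZGP1, ELOVL6, SLC46A2, G6PC1, ASB2 and AGMO on each array, by feeding group and week (x axis). Bars give the mean and SD of 5 ad libitum or 4 control dogs and the dotted line is the detection level of log2 4. AZGP1 and G6PC1 cross that line in opposite directions in ad libitum dogs, and in controls neither does.

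GPLD1, a phospholipase that cuts glycosylphosphatidylinositol anchors, measured 10.32, 8.19, 8.81, 6.46 and 6.92 at week 12, against 5.09, 5.08, 5.40, 5.05 and 6.46 at week 0. Dog 2 had the highest value and dog 8 was 6.92 at week 12 and 6.46 at week 0. It rose by log2 2.42 (SE 0.541, adjusted p = 0.0245), and a second probe set rose by 1.94 (SE 0.462, adjusted p = 0.0355). Another GPLD1 probe set, with both means below the detection level, had a difference of 0.63 (adjusted p = 0.241). SLC46A2, a solute carrier known from thymic stroma, had the smallest adjusted p of the comparison. Its values were 9.06, 7.88, 9.31, 8.06 and 7.46 at week 12, against 5.88, 5.34, 6.52, 5.43 and 6.53 at week 0, with no overlap. The rise of log2 2.48 (SE 0.335, 5.59-fold, adjusted p = 0.000325) also passed without the muscle arrays and in dogs 6, 7 and 8 alone. In control dogs SLC46A2 had a difference of 1.12, with a higher week-12 value in all 4. The 18 genes of cholesterol synthesis and uptake held no call and had a median of 0.20.

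LOX, CPZ and THBS4, proteins of the extracellular matrix, were among the 15 named genes that rose. LOX, the enzyme that crosslinks collagen and elastin, had log2 values of 6.86, 8.84, 8.28, 9.52 and 8.45 at week 12 in dogs 2, 5, 6, 7 and 8, against 4.90, 5.34, 3.77, 4.90 and 4.38 at week 0 in the same dogs. All 5 week-12 values were above all 5 week-0 values. The rise was log2 3.65 (SE 0.818, adjusted p = 0.0246), or 12.5-fold. CPZ, a secreted carboxypeptidase with a frizzled-like domain, measured 8.17, 11.69, 11.24, 6.37 and 9.18 at week 12, against 5.96, 5.37, 4.63, 3.83 and 5.44 at week 0, and rose by log2 4.41 (SE 0.961, adjusted p = 0.0204). Dogs 5 and 6 had the highest week-12 values, and again the ranges did not overlap. A dimmer CPZ probe set had a difference of 3.19 (adjusted p = 0.0688). THBS4, a thrombospondin of the matrix, measured 12.50, 11.14, 12.07, 10.68 and 11.38 at week 12, against 7.92, 8.78, 8.96, 8.04 and 9.12 at week 0, and rose by log2 2.89 (SE 0.584, adjusted p = 0.0118). Its highest value was in dog 2.

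Further matrix genes past the threshold were SVEP1, a large adhesion protein, on 3 probe sets with changes of 1.83, 1.59 and 2.29, and ADAMTS2, which trims procollagen, on 2 with 1.85 and 1.52. COL4A1, of basement membrane collagen, rose by 0.98 (SE 0.195, adjusted p = 0.0112), COL6A1 by 1.47 (SE 0.374, adjusted p = 0.0491), NID1, a basement membrane linker, by 1.05 (0.0452) and FMOD, fibromodulin, by 1.65 (SE 0.408, adjusted p = 0.0444). SPARC, a collagen-binding glycoprotein, passed on 1 probe set with 1.13 (SE 0.250, adjusted p = 0.0221) and measured 0.59 on its brightest (adjusted p = 0.0580). SERPINF1, an antiangiogenic serpin of fat, rose by 1.37 (SE 0.274, adjusted p = 0.0118). KDELR3, which retrieves proteins to the endoplasmic reticulum, rose by 1.17 (SE 0.201, adjusted p = 0.00340), and COPZ2, a coat subunit of Golgi vesicles, by 1.41 (SE 0.244, adjusted p = 0.00377). These further genes were chosen from the 182 after their values were seen.

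Of 27 collagens and other matrix proteins measured at their brightest probe set, 1 was called higher and none lower, 16 were higher and 2 lower at an unadjusted p under 0.05, and the median change was 0.59. Of 16 matrix remodelling enzymes 2 were called, 5 were higher and none lower at that level, and the median was 0.95. The 10 small leucine-rich proteoglycans had no call and a median of 0.76, but of -0.05 over dogs 2 and 6. Their mean in dog 2 was 8.64 at week 12 and 9.21 at week 0, and it was higher at week 12 in the other dogs. Over all 9113 tested genes, 706 were higher and 562 lower at an unadjusted p under 0.05, with a median of 0.00. Markers of fibroblasts are given beside them. The mean of 9 such markers was 12.89 ± 0.50 at week 12 and 12.37 ± 0.42 at week 0 (SD, n = 5 each), and 8 of the 9 had a positive change. In dog 2 this mean was lower at week 12, at 12.3 against 12.7, and in the other dogs it was higher. The median change of the 9 over dogs 2 and 6 was 0.09. In bulk tissue a larger share of cells of a type and more RNA per cell cannot be told apart, and the part of fibroblast number in these changes was not tested. Control dogs had medians of 0.52 for the collagens and 0.75 for the remodelling enzymes.

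**Figure D4:**
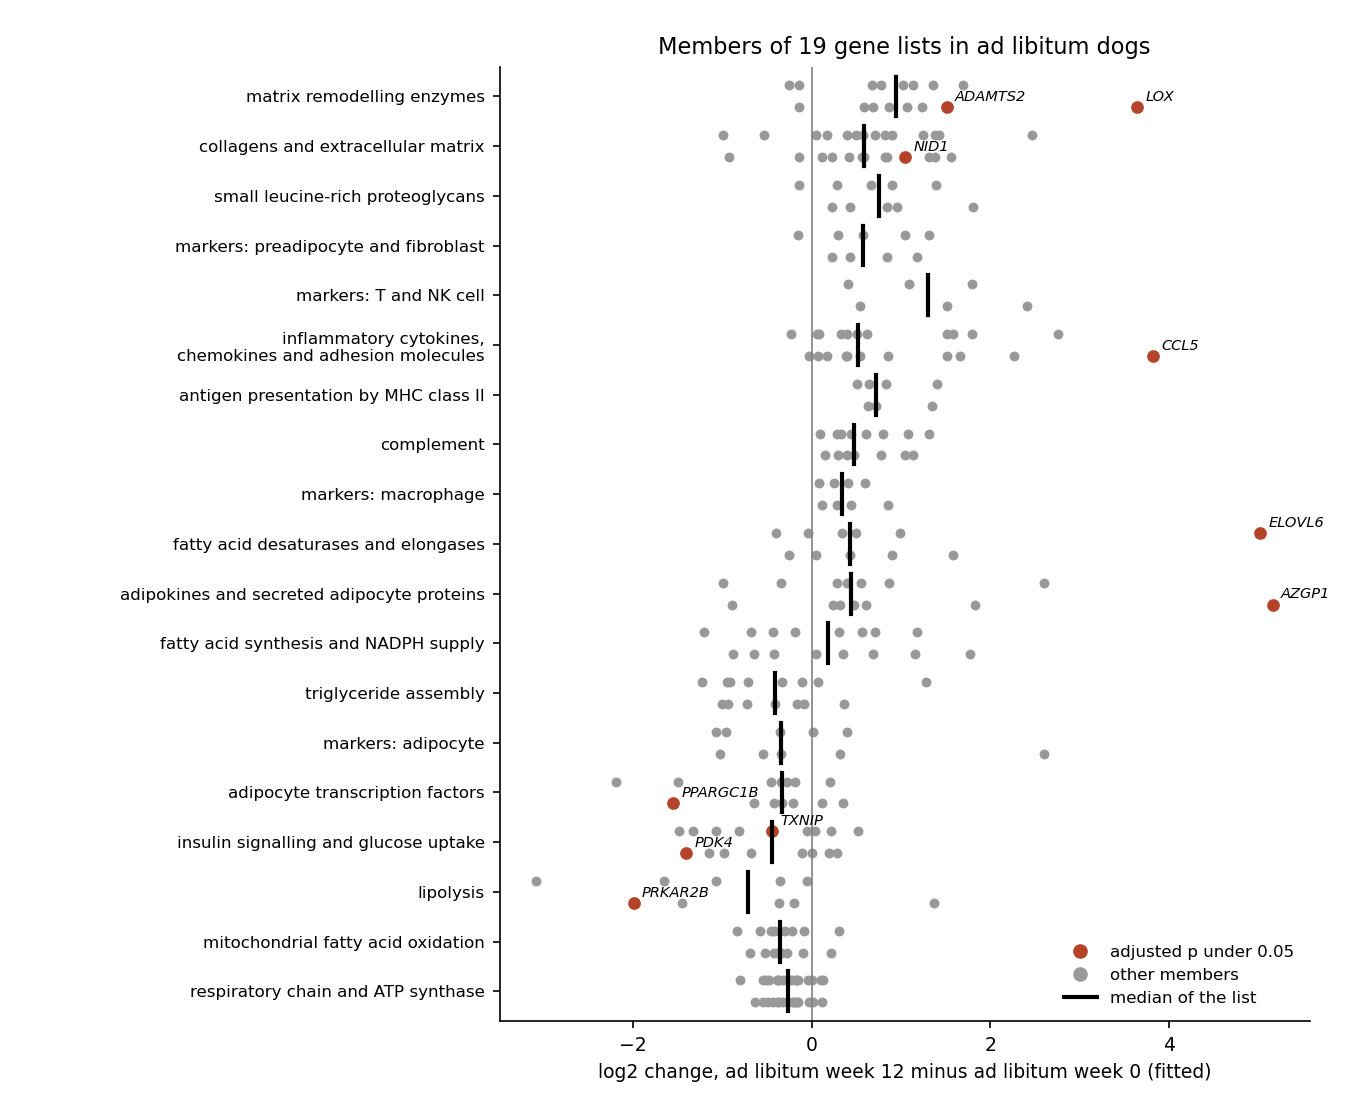
Fitted log2 change in ad libitum dogs, week 12 minus week 0 (x axis), for the measured members of 19 gene lists (y axis), each gene at its brightest probe set. Black bars are list medians, and red points are members with an adjusted p under 0.05, labelled by gene. Medians run from 1.31 for T and NK cell markers to -0.72 for lipolysis, and most single members do not pass.

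CCL5 and GZMK, genes of cytotoxic lymphocytes, rose as well. CCL5, a chemokine that draws T cells and is made by them, had log2 values of 5.97, 11.15, 10.42, 9.60 and 7.34 at week 12, against 5.36, 5.07, 5.10, 5.05 and 5.12 at week 0, in dogs 2, 5, 6, 7 and 8. Dogs 5, 6 and 7 were high at week 12 and dog 2 was only just above its week-0 value. The rise was log2 3.82 (SE 0.909, adjusted p = 0.0355). GZMK, a granule protease of killer lymphocytes, measured 5.30, 6.68, 7.72, 6.37 and 6.40 at week 12, against 4.58, 4.50, 4.32, 3.84 and 4.92 at week 0, and rose by log2 2.19 (SE 0.506, adjusted p = 0.0299). Dog 2 again had the smallest difference. NKG7, a granule protein of the same cells chosen after its values were seen, rose by 1.39 (SE 0.334, adjusted p = 0.0362) with a higher value in 4 of 5 dogs.

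T and NK cell markers are given beside these genes. The mean of 6 such markers was 4.46, 6.12, 5.98, 5.18 and 5.52 at week 12 in dogs 2, 5, 6, 7 and 8, against 4.46, 4.04, 3.88, 4.10 and 4.56 at week 0. It was higher at week 12 in dogs 5, 6, 7 and 8 and the same at both weeks in dog 2. CD3D, part of the T cell receptor complex, had a difference of 2.41 (adjusted p = 0.155) and CD3G, another part, of 1.79 (0.0548). None of the 6 was called, 5 were higher at an unadjusted p under 0.05, and the median was 1.31. Control dogs had a median of 1.16, and control dog 9 had the highest value of any dog at these weeks, 7.02 at week 12 against its own 4.37 at week 0. The part of lymphocyte number in the rise of CCL5, GZMK and NKG7 was not tested.

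Few other immune genes passed the threshold. Of 22 inflammatory cytokines, chemokines and adhesion molecules only CCL5 was called, 7 were higher and none lower at an unadjusted p under 0.05, and the median was 0.52. CCL2, the main monocyte chemokine, measured 8.46, 9.10, 9.49, 8.45 and 10.98 at week 12, against 6.62, 7.69, 8.97, 7.58 and 6.96 at week 0, with a change of 1.80 (adjusted p = 0.360) and the largest difference in dog 8. CCL8, a relative of CCL2, had a difference of 2.27 (0.162). All 7 class II antigen presentation genes and all 15 complement genes had positive fitted changes, with medians of 0.73 and 0.48 and no call. Both list means were higher at week 12 in dogs 5, 6, 7 and 8 and lower in dog 2. In that dog class II was 11.08 at week 12 against 11.73 at week 0, and complement 10.04 against 10.54. Over dogs 2 and 6 the medians were 0.36 for class II and -0.02 for complement. The complement gene C2 had a difference of 1.32 (adjusted p = 0.0904) and DLA-DQA1, a dog class II gene, of 1.40 (0.317). All 8 macrophage markers had positive changes with a median of 0.34 and none below an unadjusted p of 0.05. In dog 2, however, all 8 were lower at week 12, with differences of -0.39 to -2.20, and the median over dogs 2 and 6 was -0.39. CD68, a lysosomal protein of macrophages, measured 8.42, 9.21, 8.94, 9.40 and 8.72 at week 12, against 8.97, 7.86, 8.61, 8.68 and 9.40 at week 0, and was higher in 3 of 5 dogs with a change of 0.11 (adjusted p = 0.964).

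The remaining named genes that rose had varied roles. IGSF1, a membrane glycoprotein of the immunoglobulin superfamily, measured 8.66, 6.65, 7.05, 9.14 and 7.76 at week 12, against 2.89, 3.44, 2.86, 2.80 and 4.92 at week 0, and rose by log2 4.27 (SE 1.05, adjusted p = 0.0444), and its ranges did not overlap. Dogs 2 and 7 were highest at week 12. PYCR1, the last enzyme of proline synthesis in mitochondria, measured 7.78, 9.37, 8.84, 8.59 and 7.43 at week 12, against 6.02, 5.40, 5.83, 5.39 and 5.42 at week 0, and rose by log2 2.65 (SE 0.446, adjusted p = 0.00270). Dog 5 was highest at week 12 and the ranges did not overlap. NNMT, which methylates nicotinamide, measured 8.05 to 10.16 at week 12 and 6.41 to 7.23 at week 0 and rose by log2 2.27 (SE 0.563, adjusted p = 0.0444). A brighter NNMT probe set had a difference of 1.92 (adjusted p = 0.0787). CLEC11A, a secreted growth factor of bone marrow stroma, measured 4.65 to 9.64 at week 12 and 3.87 to 4.66 at week 0 and rose by log2 2.74 (SE 0.655, adjusted p = 0.0356), with the dog 7 value of 4.65 at week 12 inside the week-0 range. TPRG1 measured 6.49 to 8.82 at week 12 and 4.05 to 5.09 at week 0 and rose by log2 2.83 (SE 0.591, adjusted p = 0.0153). The gene listed as LOC489231 measured 8.20 to 9.90 at week 12 and 4.32 to 8.52 at week 0 and rose by log2 3.08 (SE 0.779, adjusted p = 0.0491). EPHX1, an epoxide hydrolase of detoxification chosen after its values were seen, passed on 3 probe sets with changes of 1.72, 1.55 and 1.53.

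G6PC1, the catalytic subunit of glucose-6-phosphatase that frees glucose in liver, showed the largest fall of the 15 named genes that fell, each at its probe set with the smallest p. Its log2 values were 2.75, 2.50, 2.59, 2.56 and 2.59 at week 12 in dogs 2, 5, 6, 7 and 8, against 8.41, 9.31, 7.45, 6.13 and 6.89 at week 0 in the same dogs. All 5 week-12 values were below detection, and all 5 week-0 values above it. The fitted change was log2 -4.48 (SE 1.13, adjusted p = 0.0491). The week-0 mean lay 12.5-fold above the detection level, a lower bound for the fall. In control dogs 1, 3, 4 and 9 it was 8.13, 10.98, 5.72 and 9.83 at week 12, against 6.88, 9.24, 4.88 and 9.86 at week 0. The call held in few of the other settings, in 5 of 24, and the highest adjusted p over all 24 was 0.405.

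ASB2, a substrate receptor of a ubiquitin ligase, had log2 values of 7.76, 5.52, 5.63, 9.04 and 5.48 at week 12, against 9.56, 9.38, 10.89, 10.89 and 11.20 at week 0, in dogs 2, 5, 6, 7 and 8. The ranges did not overlap, and dog 7 had the highest week-12 value. It fell by 3.83 on the log2 scale (SE 0.709, adjusted p = 0.00645), and 2 more probe sets fell by 5.30 and 4.84, larger falls than that of G6PC1. ASB2 is also known from muscle, and skeletal muscle markers were high at week 0 in dogs 5, 7 and 8. In dogs 2 and 6, whose muscle mean was near log2 4 at both weeks, its change was -1.80 and -5.26, and without the muscle arrays it was -4.51 (adjusted p = 0.0521). PRKAR2B, the regulatory subunit of protein kinase A that prevails in fat, measured 11.14, 10.01, 10.62, 11.57 and 10.98 at week 12, against 12.60, 12.50, 13.35, 12.47 and 13.06 at week 0. It fell by 1.99 (SE 0.436, adjusted p = 0.0212) with no overlap. Dimmer PRKAR2B probe sets had differences of -1.74 and -1.90 (adjusted p = 0.0904 and 0.0885). SIK2, a kinase of adipocytes that protein kinase A phosphorylates, measured 2.11 to 2.95 at week 12, below detection in all dogs, and 3.03 to 5.41 at week 0, below detection in dogs 2 and 5. It passed the test (adjusted p = 0.0370), and the week-0 mean lay 1.27-fold above the detection level, a lower bound for the fall. The anchoring protein AKAP1, which holds protein kinase A at mitochondria and was chosen after its values were seen, fell on 3 probe sets with changes of -1.09, -1.13 and -1.54.

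AGMO, ACER2 and PSAT1, enzymes of ether lipid, ceramide and serine metabolism, fell with a lower value at week 12 in all 5 dogs. AGMO, which cleaves ether lipids, measured 5.37, 4.25, 4.93, 5.39 and 4.22 at week 12, against 6.97, 7.03, 7.77, 7.86 and 7.82 at week 0. It had no overlap and fell by 2.68 on the log2 scale (SE 0.427, adjusted p = 0.00190), and 2 more probe sets passed, 1 with a fall of 3.08 and 1 that was below detection at week 12 in all dogs. ACER2, a ceramidase of the Golgi, measured 5.38, 5.02, 4.07, 5.59 and 4.07 at week 12, against 7.33, 6.77, 7.30, 7.17 and 6.58 at week 0, and fell by 2.28 (SE 0.406, adjusted p = 0.00427). PSAT1, an aminotransferase of serine synthesis, measured 10.04, 8.98, 9.12, 9.44 and 9.34 at week 12, against 11.52, 10.80, 11.67, 11.38 and 11.98 at week 0, and fell by 2.13 (SE 0.387, adjusted p = 0.00522) on the probe set named here and by similar amounts on 2 more. Each of these 3 enzymes also passed without the muscle arrays, and AGMO and PSAT1 passed in dogs 6, 7 and 8 alone.

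GPR146, an orphan receptor, measured 5.12, 2.85, 3.82, 4.10 and 3.33 at week 12, against 5.81, 5.21, 6.67, 5.60 and 7.12 at week 0, and fell by 2.48 (SE 0.524, adjusted p = 0.0162). Dog 8 showed the largest difference and dog 2 the smallest. PFKFB1, a bifunctional enzyme that sets an allosteric activator of glycolysis, measured 5.09 to 5.88 at week 12 and 6.40 to 8.16 at week 0 and fell by 1.95 (SE 0.422, adjusted p = 0.0190). LIFR, the receptor of leukaemia inhibitory factor, measured 2.81 to 4.08 at week 12, where only dog 5 was above detection, and 3.77 to 6.05 at week 0, and fell by 1.89 (SE 0.448, adjusted p = 0.0355). A brighter LIFR probe set, with means of 5.39 at week 12 and 6.17 at week 0, had a difference of -0.72 (adjusted p = 0.160), and in control dogs the pair had differences of -1.23 and -0.84. CNST, a protein of connexin trafficking, fell by 1.80 (SE 0.425, adjusted p = 0.0354), and DYNC2I2, a chain of the dynein of cilia, by 2.34 (SE 0.583, adjusted p = 0.0444). A dimmer CNST probe set had a difference of -0.79 (adjusted p = 0.449). CCDC68 and the genes listed as LOC483462 and LOC478001 fell by 2.42, 2.94 and 2.35 on the log2 scale (adjusted p = 0.0214, 0.0118 and 0.0309). A second CCDC68 probe set had a difference of -2.25 in ad libitum dogs (adjusted p = 0.155) and of -2.37 in control dogs. Among further genes past the threshold, chosen after their values were seen, BCL2, an inhibitor of cell death, fell by 1.71, SLC23A2, a vitamin C carrier, by 1.60 and EDN1, the vasoconstrictor endothelin, by 1.40 (adjusted p = 0.0136, 0.0162 and 0.0355).

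Gene lists of adipocyte metabolism mostly had medians below 0, with few members past the threshold. Of 10 lipolysis genes PRKAR2B was called lower, 5 were lower and 1 higher at an unadjusted p under 0.05, and the median was -0.72. The mean of the lipolysis list was 9.12, 7.42, 8.41, 9.47 and 8.16 at week 12 in dogs 2, 5, 6, 7 and 8. At week 0 it was 9.03, 8.67, 9.69, 9.14 and 9.86, so it was lower at week 12 only in dogs 5, 6 and 8. HCAR2, a receptor that restrains lipolysis, had a difference of -3.08 (adjusted p = 0.0675) and PNPLA2, the triglyceride lipase, of -1.07 (0.210). Of 17 genes of insulin signalling and glucose uptake 2 fell, PDK4, which blocks pyruvate oxidation in fasting, by 1.40 (adjusted p = 0.0256) and TXNIP, which restrains glucose uptake, by 0.44 (0.0444). FOXO1, a factor active when insulin is low, had a difference of -0.82 (0.127), 7 of the 17 were lower and none higher at an unadjusted p under 0.05, and the list's median was -0.44. Of 14 adipocyte transcription factors PPARGC1B, a coactivator of mitochondrial genes, fell by 1.55 (0.0362), and the median was -0.33. VEGFA, the main growth factor of vessels, fell by 1.29 (0.0162) and was the only one of 21 hypoxia and angiogenesis genes called. The 10 adipocyte markers held no call, with a median of -0.35.

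The 15 genes of triglyceride assembly had no call, 3 lower and none higher at an unadjusted p under 0.05, and a median of -0.41. In control dogs the same list had a median of 0.32. The list mean was higher at week 12 in control dogs 1 and 3 and lower in control dogs 4 and 9. Among ad libitum dogs it was higher at week 12 in dogs 2 and 7 and lower in dogs 5, 6 and 8. DGAT1, which completes triglyceride, had a difference of -0.91 (adjusted p = 0.271) and VLDLR, a lipoprotein receptor in the uptake list, of -1.53 (0.126). Mitochondrial lists held no call. Their medians were -0.36 for 19 genes of fatty acid oxidation, -0.32 for 21 of the citric acid cycle, -0.26 for 35 of the respiratory chain and -0.24 for 52 of the mitochondrial ribosome. Skeletal muscle, rich in mitochondria, contributed transcripts at week 0 in dogs 5, 7 and 8, and its part in these medians was not tested. The respiratory chain mean in dogs 2, 5, 6, 7 and 8 was 13.19, 12.65, 12.86, 12.80 and 12.51 at week 12. It was 12.67, 12.66, 12.90, 13.49 and 13.33 at week 0 in the same dogs. Without the 10 muscle arrays the mitochondrial medians became -0.23, -0.05, 0.06 and -0.14. That of lipolysis was -1.04, that of the collagens 0.58 and that of T and NK cell markers 2.21. This fit sets dogs 2, 5, 6 and 8 at week 12 against dogs 2 and 6 at week 0. Dogs 5 and 8 thus have no week-0 array of their own there. In the paired values of dogs 2 and 6 the mitochondrial medians were -0.07, 0.12, 0.19 and -0.04. Those of lipolysis, the collagens and T and NK cell markers were -0.53, 0.57 and 1.17. Of 17 glycolysis genes PFKFB1 alone was called, with a fall of log2 -2.20 on its brightest probe set (adjusted p = 0.0381), and the median of the list was -0.28 with all arrays and 0.04 without the 10.

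Of the 53 lists examined, 10 held a call, and the 43 others held none. The unfolded protein response list had a median of 0.27 over 22 genes with no call, and its chaperone HSPA5 had a difference of 0.91 (adjusted p = 0.173). The list of Wnt modulators had a median of 0.35 over 16 genes. SFRP2, a secreted Wnt inhibitor, had a difference of 5.30 (adjusted p = 0.0520) and its relative SFRP4 of 2.94 (0.106), both higher in 5 of 5 dogs and neither past the threshold. TSC22D3, a glucocorticoid-induced gene, had a difference of -0.55 (0.0969), and the 12 glucocorticoid response genes had a median of -0.36. IGF1, the growth factor, had a difference of 1.11 (0.129) and STAT5B, which carries the growth hormone signal, of -1.50 (0.0756). Cell cycle, clock, ribosomal protein and splicing lists had medians of 0.10, -0.14, -0.10 and -0.08. The epithelial marker EPCAM, the only one measured of its list, averaged 3.30 ± 0.19 at week 12 and 7.11 ± 0.94 at week 0 (SD, n = 5 each). The change of -3.91 did not pass (adjusted p = 0.158). In control dogs EPCAM averaged 5.68 ± 2.22 at week 12 and 4.76 ± 1.55 at week 0 (SD, n = 4 each).

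The control dogs give the values over the same 12 weeks without free feeding. No probe set was called in them (0% of those tested), although 4029 had an unadjusted p under 0.05 and the smallest adjusted p was 0.0862. Without control dog 1, 4121 probe sets were called in them, and with array weights and all dogs 2679 were, while the other alternatives gave 0 to 2. The test that compares the 2 groups, which subtracts the control change from the ad libitum change, called 0% of the probe sets (limma, smallest adjusted p 0.749, 1213 at an unadjusted p under 0.05). Without the 2 week-8 arrays that did not match their dog, it called AZGP1 alone, with a difference of 5.26 (SE 0.842, adjusted p = 0.0127). Without dog 5 it called AZGP1 alone as well, with 5.52 (SE 0.880, adjusted p = 0.0186), and without control dog 1 a single probe set with no gene symbol.

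The values in control dogs stand beside those in ad libitum dogs as follows. Of the 93 probe sets called higher, 91 had the same sign in control dogs and 67 of those had an unadjusted p under 0.05 there, with a control median of 0.80. Of the 89 called lower, 63 had the same sign in control dogs and 9 of those had such a p, with a control median of -0.17. Over all 22690 tested probe sets 61.0% had the same sign, and 3250 had the same sign and such a p. The groups contain different dogs but were fitted together, and the week-12 and week-0 arrays of both groups share batches. CPZ had a difference of 4.41 in ad libitum dogs and 3.27 in control dogs, CCL5 of 3.82 and 3.31, TPRG1 of 2.83 and 2.21, and THBS4 of 2.89 and 1.74. IGSF1 had 4.27 and 2.17, GZMK 2.19 and 1.95, CLEC11A 2.74 and 1.95, and NNMT 2.27 and 1.56. For PYCR1 they were 2.65 and 1.48, for LOC489231 3.08 and 1.43, and for SLC46A2 2.48 and 1.12. LOX had 3.65 and 1.25, ELOVL6 5.02 and 0.89, and GPLD1 2.42 and 0.62. AGMO had a difference of -2.68 in ad libitum dogs and 0.29 in control dogs, ASB2 of -3.83 and -0.17, and PSAT1 of -2.13 and 0.03. For AZGP1 the difference between the groups' changes was 4.71 (SE 1.15, unadjusted p = 0.000251, adjusted p = 0.749), and for AGMO it was -2.97 (SE 0.674, 0.000102, 0.749).

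The other weeks place week 12 in the course of the feeding period. Each is set against the same week-0 arrays, so the changes are not independent of each other. The week-8 means hold the 2 arrays that match a dog of the other feeding group, and are given without them at the end of each gene's account. In ad libitum dogs AZGP1 averaged 2.31 ± 0.05 at week 0, 8.26 ± 1.21 at week 4, 6.72 ± 2.60 at week 8, 7.73 ± 0.89 at week 12 and 2.37 ± 0.06 at week 24 (SD, n = 5 each), and in control dogs 2.34, 2.35, 2.38, 2.36 and 3.18 at those weeks. Without the 2 arrays its week-8 mean was 7.81 ± 1.03 in ad libitum dogs (n = 4) and 2.36 in control dogs (n = 3). It was thus above detection at weeks 4, 8 and 12 and back below it at week 24 in the ad libitum mean. ELOVL6 averaged 3.34 ± 0.34 at week 0, 9.35 ± 1.71 at week 4, 7.26 ± 2.30 at week 8, 8.43 ± 2.59 at week 12 and 7.76 ± 1.70 at week 24, and in control dogs 3.45, 4.39, 5.24, 4.10 and 3.60. Without the 2 arrays the week-8 means were 8.28 ± 0.40 in ad libitum dogs and 3.71 in control dogs. LOX averaged 4.66 ± 0.60 at week 0, 7.55 ± 0.92 at week 4, 8.13 ± 2.49 at week 8, 8.39 ± 0.98 at week 12 and 9.91 ± 0.73 at week 24, and in control dogs 4.90, 4.93, 6.26, 5.98 and 6.32. Its week-8 means without the 2 arrays were 9.22 ± 0.65 in ad libitum dogs and 5.77 in control dogs. LOX was highest at week 24, where all arrays lie in a batch of their own, so week and batch cannot be told apart there.

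CCL5 had its highest mean at week 12 in both groups. In ad libitum dogs it averaged 5.14 ± 0.13 at week 0, 5.68 ± 0.58 at week 4, 5.35 ± 0.71 at week 8, 8.90 ± 2.17 at week 12 and 5.85 ± 2.13 at week 24, and in control dogs 5.32, 6.36, 5.17, 8.28 and 5.18. At week 8 without the 2 arrays it averaged 5.06 ± 0.28 in ad libitum dogs and 5.21 in control dogs. G6PC1 averaged 7.64 ± 1.25 at week 0, 3.07 ± 0.64 at week 4, 5.05 ± 3.34 at week 8, 2.60 ± 0.09 at week 12 and 3.64 ± 2.13 at week 24 in ad libitum dogs and 7.72, 8.26, 7.01, 8.67 and 2.86 in control dogs, whose mean also lay below detection at week 24. At week 8 without the 2 arrays it averaged 3.69 ± 1.65 in ad libitum dogs, below detection, and 7.41 in control dogs. PSAT1 averaged 11.47 ± 0.43 at week 0, 9.88 ± 0.32 at week 4, 10.59 ± 0.80 at week 8, 9.38 ± 0.41 at week 12 and 9.75 ± 0.36 at week 24 in ad libitum dogs and 11.15, 11.54, 11.12, 11.25 and 9.73 in control dogs. At week 8 without the 2 arrays it averaged 10.28 ± 0.43 in ad libitum dogs and 11.21 in control dogs. The 93 probe sets called higher at week 12 had median changes from week 0 of 1.17, 1.41 and 0.79 at weeks 4, 12 and 24. The 89 called lower had medians of -1.29, -1.60 and -1.09. They were chosen at week 12, so the week-12 medians are the largest by choice.

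**Figure D5:**
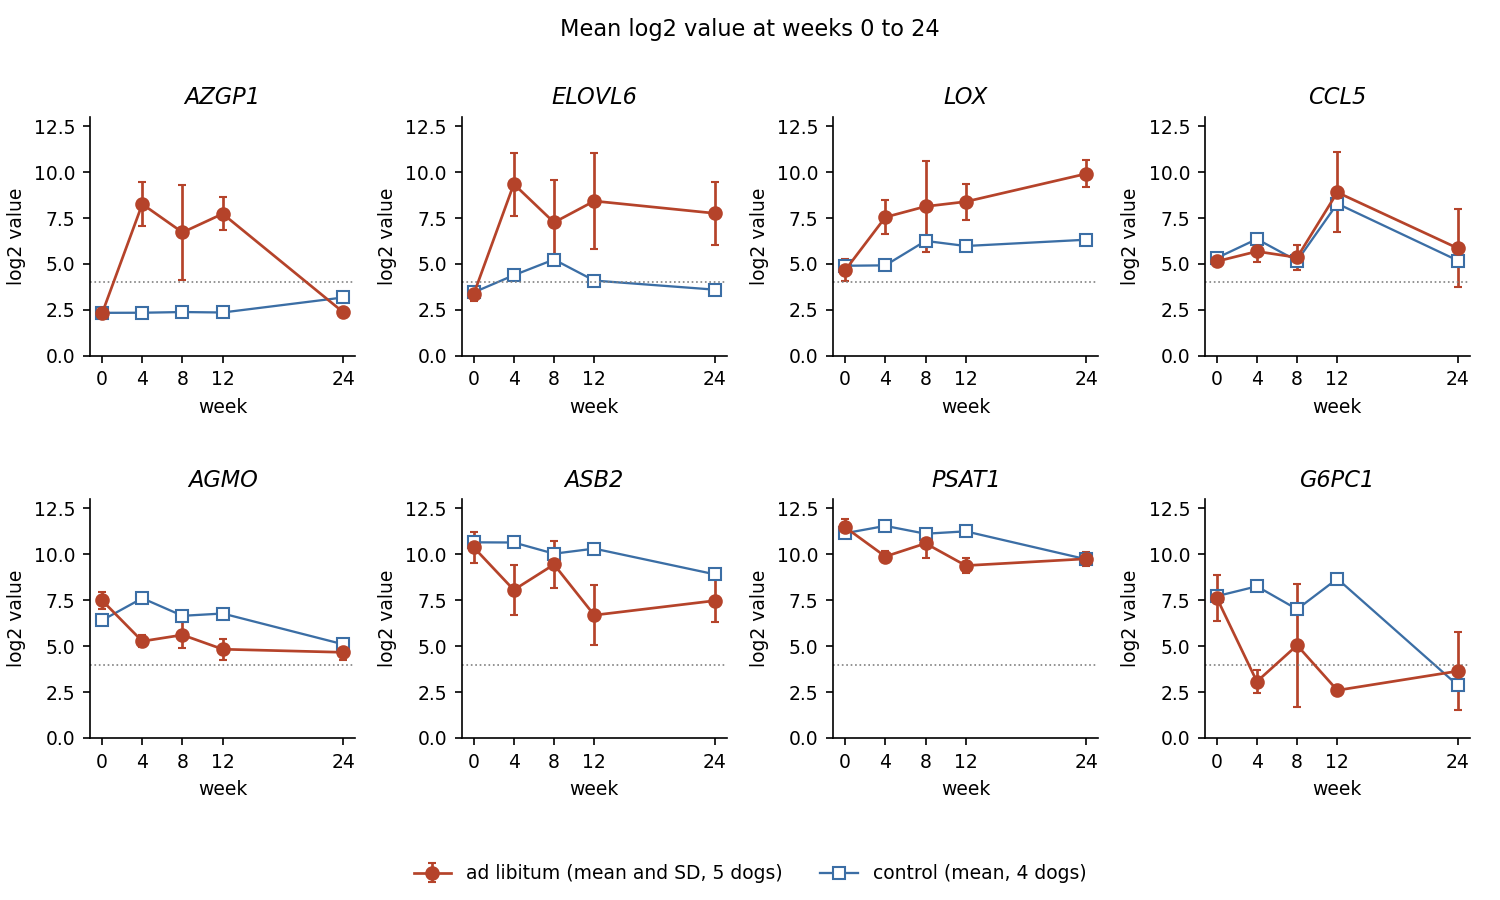
Log2 value (y axis) of 8 genes at weeks 0, 4, 8, 12 and 24 (x axis). Filled points with bars are the mean and SD of 5 ad libitum dogs, open squares the mean of 4 control dogs, and the dotted line is the detection level of log2 4. The week-8 points hold the 2 arrays that match a dog of the other feeding group. AZGP1 is above detection in ad libitum dogs at weeks 4, 8 and 12 and below it at weeks 0 and 24.

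The 5 ad libitum dogs differed from each other in which genes moved most. Over the 93 probe sets called higher, the median change was 1.46 in dog 2, 1.82 in dog 5, 1.45 in dog 6, 1.59 in dog 7 and 0.65 in dog 8, and dog 8 had the smallest change in 57 of them. Over the 89 called lower, the medians were -1.15, -1.84, -2.04, -1.18 and -1.65 in dogs 2, 5, 6, 7 and 8, and dog 2 had the smallest change in 38. Among the 15 named genes that rose, dog 2 had the largest change in 6 and the smallest in another 6. The 6 with its largest change were AZGP1, LOC489231, THBS4, TPRG1, SLC46A2 and GPLD1. The 6 with its smallest were CPZ, CCL5, LOX, PYCR1, NNMT and GZMK. Dog 2 was also the dog whose T and NK cell marker mean was the same at both weeks.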

How the data were processed

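Subcutaneous fat RNA was extracted with Trizol, labelled with biotin by the 1-cycle 3' method and hybridised to Affymetrix canine arrays, per the labels' protocols. The values deposited by the authors are 1 per probe set and read as log2, from their range of 0.42 to 17.51; per the submitters' processing notes the tool was GCRMA (no version), and neither the log base nor any batch correction by the authors is stated in those notes or the labels. The deposited table held 43035 probe sets, of which 111 array controls were left out. Gene symbols came from the platform annotation of the array, compared with a RefSeq gene table (16015 tested probe sets found, 0 symbols updated). Of the tested probe sets 16915 had 1 symbol, 271 several and 5504 none, for 9113 genes.

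All 45 arrays were fitted with limma 3.58.1 (under R 4.3.3, with statmod 1.5.0): 10 means (feeding group by week), a term for laboratory batches 1 to 5 (every week-24 array was in batch 6, which had no term) and the dog as a random block, with 31 residual degrees of freedom. The same dog gave both arrays of a pair, by its animal id; the correlation estimated for the block was 0.00562, and deviations from the group means correlated between the 2 weeks at -0.34, 0.47, 0.27, 0.16 and -0.53 in dogs 2, 5, 6, 7 and 8. P-values come from the moderated test of limma, adjusted by Benjamini-Hochberg over 22690 probe sets, with a threshold of 0.05. Folds are 2 to the power of the fitted change. Where a group lay below log2 4 on every array, the fold is a bound from that level, the lowest taken as measured. Arrays carry no counts, and precision is limited by how many there are.

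The genes named are up to 15 of each sign by size of change among those past the threshold with the same sign in 5 of 5 dogs, up to 3 members of each sign per gene list by p, and 9 fixed genes; others are marked. The 53 gene lists and the comparison itself were chosen with earlier results of these data known. A list is described by counts and its median at each gene's brightest probe set. Alternatives varied the batch term, block, normalization, filter, arrays, dogs and weights; the 2 that leave out arrays above a muscle mean of log2 6 or add that mean as a covariate were chosen after seeing the data. Tested on simulated data, the fit recovered 44.8%, 77.6% and 98.5% of probe sets shifted by log2 1, 2 and 4 in this comparison, with 8 false among 155 calls. The simulated noise was independent and normal, with the same spread on every array for a probe set. It held no dog effect, no correlation between probe sets and no muscle arrays. The false calls there therefore give no error rate for the 182 calls.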

Additional observations from a re-analysis of the deposited data

Results flagged for a closer look

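In 82 groups of 5 ad libitum arrays, from 38 genes and 3 array measures at week 12 and week 0, 7 held a value whose gap to its nearest neighbour was above 0.71 of the group's range (Dixon's critical value), which chance gives in about 1 of 20 groups. ELOVL6 was 3.86 in dog 7 at week 12, against 8.88 to 10.18 in the other dogs. LPL was 14.52 in dog 2 at week 12, against 13.62 to 13.74 in the others. The skeletal muscle marker mean was 7.35 in dog 7 at week 12, against 3.94 to 4.25 in the others. At week 0 dog 8 stood apart in 3 genes, with GPLD1 at 6.46 (others 5.05 to 5.40), LOC483462 at 9.70 (9.03 to 9.12) and CCDC68 at 5.56 (7.27 to 7.47). CCL5 was 5.36 in dog 2 at week 0, against 5.05 to 5.12 in the others, a gap of little size on the log2 scale.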

How the results depend on the processing

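The 30 named genes kept their sign in all 25 alternatives that tested them, and none passed in every one. The 93 higher and 89 lower calls became 181 and 133 without the batch term, 44 and 34 without the filter on low values, 5 and 15 without the arrays above a muscle mean of log2 8, 34 and 59 without the 10 above log2 6, 45 and 98 with the muscle mean as a covariate, 147 and 142 without the 2 week-8 arrays that did not match their dogs, 53 and 60 without week 24, 2850 and 2372 with array weights, and 8 and 11 in dogs 6, 7 and 8 alone. Leaving out 1 dog at a time gave 2 to 224 higher and 0 to 182 lower. The causes were not tested. With no replicate block the counts were 85 and 83, with the dog as a fixed replicate block 109 and 96, and with only the 10 paired arrays and the dog as a fixed block 0 and 0. Quantile normalization gave 96 and 81, median centring 86 and 70, a mean above log2 6 gave 93 and 92, and the actin value as a covariate 80 and 86. The difference in change between the feeding groups held 0 calls, 1 without those week-8 arrays, 4 with array weights and 0 to 1 with 1 dog left out. Under array weights the 4 were AZGP1, LOC489640 and 2 probe sets with no symbol. Among genes that did not pass, FASN ranged from -0.67 to 0.12 with 1 dog left out, turning sign without dog 8, and CD68 did so without muscle arrays (-0.27 above log2 8, -0.0076 above log2 6), with the muscle covariate (-0.075), without the week-8 arrays (-0.017), without dog 5 (-0.10) and dog 7 (-0.04), within a range of -0.10 to 0.33 with 1 dog left out. Of 941 values of the 38 named genes, 667 kept sign and side of the threshold, 258 no longer passed and 9 newly passed. Signals near log2 4 limit what can be read as a level, and 5 dogs limit the precision.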

Other observations

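LOC489640 was called higher in ad libitum dogs with a change of log2 3.99 (SE 0.789, adjusted p = 0.0112) but stands outside the rule for named genes, because 4 of 5 dogs shared the sign. Its values are given here without a description of the gene, which the files list by identifier alone. In control dogs its fitted change was -0.88.

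Among these weeks, none of the 4 control dogs had high skeletal muscle markers at week 12, whereas dogs 1 and 3 had them at week 0. In ad libitum dogs too the higher muscle values lay at week 0, in dogs 5, 7 and 8.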
